A study of Mus musculus with 20 samples.

Results

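The genes described here are the protein-coding neighbours of the Dp1Tyb duplication on mouse chromosome 16 (Mmu16), which stay at 2 copies in every genotype of the study. They were chosen by position alone: protein-coding genes of the expression table whose start lies between position 45000000 and the start of Lipi on GRCm39 (Lipi, 16:75337402-75382949, left out). Of 111 genes in this stretch, 109 were kept as members, out of 48795 genes in the table, and 50 of the 109 averaged 10 or more normalized counts over all hearts and were tested.

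The study used RNAseq of 20 whole hearts at E13.5, each from a separate embryo. There were 10 WT hearts, 5 Dp1Tyb hearts and 5 hearts labelled Dp1TybDyrk1a+/+/-. Dp1Tyb mice carry an extra copy of the Mmu16 genes from Lipi to Zbtb21 (16:97744557-97763836), and the controls do not. In Dp1TybDyrk1a+/+/- mice the same duplication is combined with 1 null allele of Dyrk1a (Dyrk1a tm1Mla), so that Dyrk1a is back to 2 functional copies while the other genes of the interval stay at 3. All mice were on the C57BL/6J background. The Dp1TybDyrk1a+/+/- mice form a strain of their own, founded by 1 recombinant animal with the duplication and the null allele in cis, and its copy of the neighbouring stretch was not examined for sequence differences. The study used littermates of each strain as controls, but the labels do not say which WT heart belongs to which strain, nor its sex. Both comparisons with WT therefore share the same 10 WT hearts, part of which come from the other strain's litters, and a difference between the strains cannot be told apart from the genotype.

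Genes inside a duplication gain template, whereas genes beside it keep their copy number and serve as a local control for dosage. They are not passive bystanders in principle, since a rearrangement can move enhancers or domain borders next to them and the products of the duplicated genes can act on them from elsewhere. In humans the counterparts of many of these neighbours lie on chromosome 3 rather than 21, so they are outside the dosage imbalance of Down syndrome. Several have roles in the developing heart: ROBO1 and ROBO2 are receptors for SLIT guidance ligands, IFT57 and ARL6 serve the primary cilium, and GBE1 is the glycogen branching enzyme.

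The untested members had little or no signal in these whole hearts at E13.5. Of the 59 untested members, 32 were listed at 0 in every heart, among them 26 of the 27 olfactory receptor genes, and 27 varied but stayed under the filter. Those 27 included Pou1f1, a pituitary transcription factor, Htr1f, a serotonin receptor, Cd96 and Btla, receptors of lymphocytes, and the Retnla, Retnlb and Retnlg cluster of resistin-like secreted proteins, with mean normalized counts of 0.302, 0.302, 0.948, 0.495, 0.202, 0.202 and 0.791. These means were taken back from the deposited log2 values, so a gene listed at 0 in every heart has a mean of 1. They rank such low genes poorly. Among the tested members, 46 averaged 100 or more normalized counts. Per kb of exon, the highest mean log2 values in WT hearts were those of Chmp2b (9.02), a subunit of the ESCRT-III membrane-remodelling complex, Ahcyl (8.57), Cggbp1 (8.51), a CGG-repeat binding protein, Dcbld2 (8.51), a membrane protein of vascular cells, and Alcam (8.37), an adhesion molecule.

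All values are log2 normalized counts as deposited, and they carry no information on sequencing depth. The targeted gene Dyrk1a does not check the labels on this scale: its value ran from 11.28 to 11.43 in WT, from 11.65 to 11.75 in Dp1Tyb and from 11.70 to 11.85 in Dp1TybDyrk1a+/+/- hearts, and the null allele lacks only some of its exons. One heart stood apart, Dp1TybDyrk1a+/+/- heart A15, which was the highest of its group for 32 of the 50 tested members (64%) and for 37.7% of all tested genes. It was the lowest of its group for 12% of the members and for 38.2% of all tested genes, so over all genes it stood out in both directions. Among the WT hearts, A10 was the highest for 26% of the members and for 23.2% of all tested genes, and the lowest for 8% and 22.8%. Markers of heart cell types were present throughout: the summed log2 level of 8 cardiomyocyte genes ran from 18.66 to 18.99 in WT, 18.68 to 18.84 in Dp1Tyb and 18.78 to 18.90 in Dp1TybDyrk1a+/+/- hearts. Fibroblast and cushion mesenchyme markers, such as Postn and Col1a1, had 6 of 6 fold changes above 0 in Dp1Tyb versus WT (median 0.098) and versus Dp1TybDyrk1a+/+/- (median 0.13), with sums from 16.24 to 16.74 in WT, 16.57 to 16.78 in Dp1Tyb and 16.31 to 16.79 in Dp1TybDyrk1a+/+/- hearts. Cardiomyocyte markers had 5 of 8 fold changes below 0 in Dp1Tyb versus WT (median -0.040) and 7 of 8 versus Dp1TybDyrk1a+/+/- (median -0.096). The part of these differences in the results below was not tested. The most variable list was the erythroid one, from 16.39 to 18.62 in WT, 17.39 to 18.50 in Dp1Tyb and 17.04 to 18.48 in Dp1TybDyrk1a+/+/- hearts. Over 11 marker lists (cardiomyocyte, endothelial and endocardial, epicardial, fibroblast and cushion mesenchyme, smooth muscle, macrophage, erythroid, neural crest glia and neurons, liver, lung epithelium, skeletal muscle), 0 of 51 tested genes passed limma's adjusted P of 0.05 in any of the 3 comparisons, and an unadjusted P under 0.05 was found for 9 of them in Dp1Tyb and 4 in Dp1TybDyrk1a+/+/- hearts against WT, and for 6 between the duplication genotypes (17.6%, 7.84% and 11.8%, against 15.6%, 9.64% and 18.5% of all tested genes). The liver markers Ttr and Apoa1, the lung markers Sftpc and Sftpb and the skeletal muscle markers Myod1 and Myf5 were under the filter. In bulk hearts fewer cells of a type and less RNA per cell cannot be told apart.

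The first question was whether expression outside the duplication follows the extra copy inside it. In Dp1Tyb hearts compared to WT, 1 of the 50 tested members passed the test, Cip2a, which was lower, and 0 were higher. This is 2% of the members, beside 3.08% of all 15304 tested genes. The median log2 fold change of the members was -0.020 (all tested genes, -0.0019). On the log2 scale 47 of the 50 lay within 0.1 of 0, a share of 94% and close to the 92.4% of all tested genes. The fold changes ran from -0.14 for Cip2a to 0.081 for Tmem45a. Of the 50 members 36 were below 0 (72%, against 51.5% of all tested genes), yet 5 had an unadjusted P under 0.05 (10%, against 15.6%). The 5 were Cip2a, Cep97, a centrosomal cap protein (-0.10, limma adjusted P = 0.0948), Pcnp, a nuclear PEST-domain protein (-0.063, 0.0828), Plcxd2 (-0.055, 0.187) and Crybg3 (-0.10, 0.298). Leaving out single hearts from the shared fit gave 4 to 8 members at this level and 33 to 37 members below 0. The count of 8 came without WT heart A19 and also without Dp1TybDyrk1a+/+/- heart A15.

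**Figure D1:**
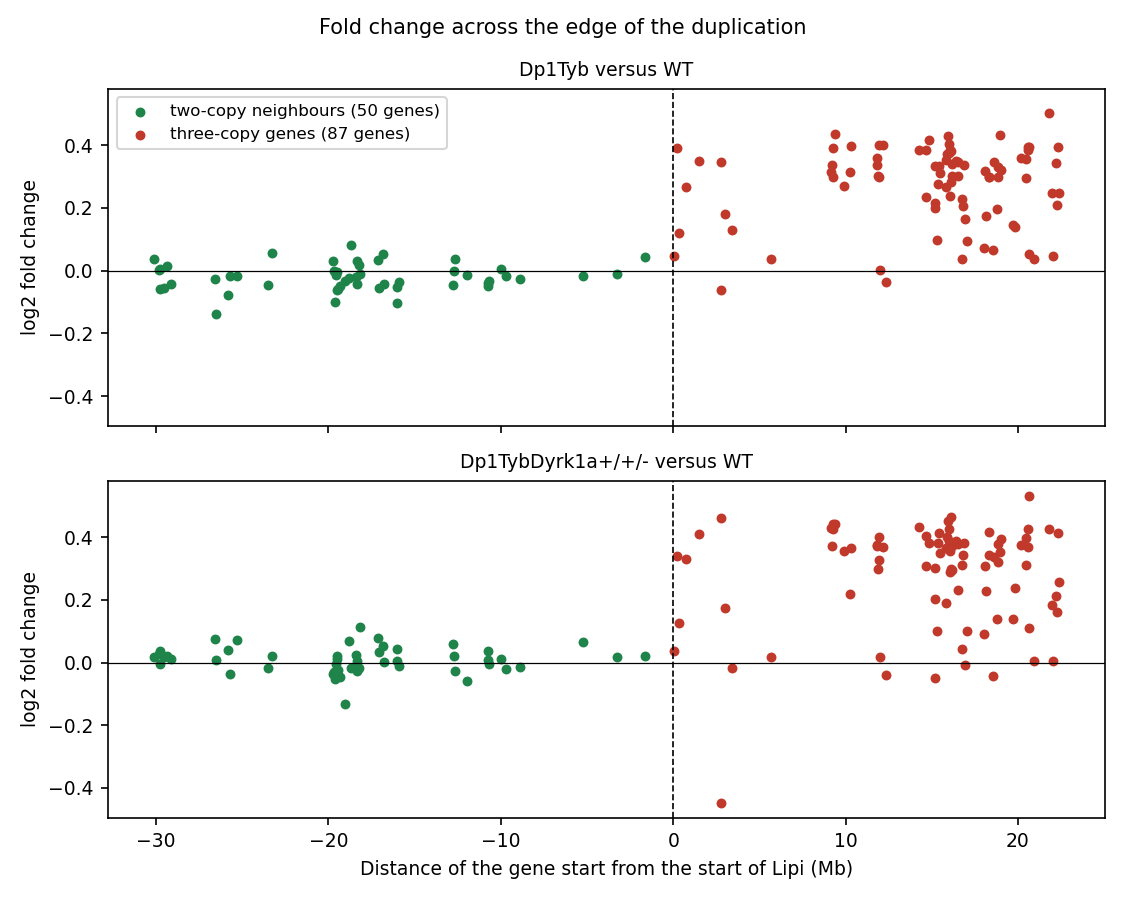
Log2 fold change (vertical axis) of 50 tested two-copy neighbours (green) and 87 tested three-copy genes (red) against the distance of the gene start from the start of Lipi in Mb (horizontal axis), for Dp1Tyb versus WT above and Dp1TybDyrk1a+/+/- versus WT below. The neighbours lie around 0 up to the dashed line, with medians of -0.020 and 0.011, and the three-copy genes start just beyond it, with medians of 0.30 and 0.34.

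At the edge of the duplication the fold change rose between Robo2, outside it, and Hspa13, inside it. Robo2 is the member nearest to Lipi (16:73688727-75244270, minus strand), and its start site lies 93.1 kb from the start of Lipi. Its log2 value in WT hearts ran from 9.04 to 9.19, with a median of 9.10. In the 5 Dp1Tyb hearts it was 9.23, 9.14, 9.10, 9.08 and 9.20, and in the 5 Dp1TybDyrk1a+/+/- hearts 9.06, 9.12, 9.34, 9.07 and 9.06. The 3 groups overlapped, with 9.34 in heart A15 as the only value above the Dp1Tyb range, and Robo2 did not pass the test (fold change 0.042 ± 0.040 (SE), limma adjusted P = 0.687, in Dp1Tyb, and 0.021 ± 0.040, adjusted P = 0.881, in Dp1TybDyrk1a+/+/-, or -0.032 without A15). On the other side of the edge, Hspa13, an HSP70-family chaperone 205 kb into the interval, ran from 10.55 to 10.63 in WT hearts. It was 10.97, 10.97, 11.03, 10.99 and 10.97 in Dp1Tyb hearts, all above every WT heart (fold change 0.39 ± 0.023, limma adjusted P = 5.06e-10). Rbm11, an RNA-binding protein between the 2 genes, had a mean normalized count of only 14.3 and did not pass in either genotype (0.047 and 0.036), which leaves Hspa13 as the first gene with a called increase. The next tested genes inward, Samsn1 and Nrip1, passed in Dp1Tyb hearts with lower fold changes than Hspa13. They were 0.12 (limma adjusted P = 0.00118) and 0.27 (0.00418).

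Robo1 and Gbe1, the next members outward, stayed with Robo2. For Robo1, the sister receptor of Robo2, the 5 Dp1Tyb hearts had log2 values of 11.42, 11.41, 11.33, 11.35 and 11.46, beside a WT range from 11.33 to 11.45, with which they overlapped. Its fold changes were -0.010 (limma adjusted P = 0.933) in Dp1Tyb and 0.018 (0.889) in Dp1TybDyrk1a+/+/- hearts. For Gbe1 they were -0.017 (0.861) and 0.065 (0.537). At the far end of the stretch, Cd200, an immune inhibitory ligand, had fold changes of 0.036 and 0.018, and the first neighbour beyond Zbtb21, B230307C23Rik, 0.029 and 0.0068, neither of which passed.

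No trend towards the edge was visible within the stretch. In bins of 5 Mb from the start of Lipi outward, which held 2, 3, 8, 23, 2, 11 and 1 tested members, the median fold changes in Dp1Tyb hearts were 0.016, -0.019, -0.023, -0.023, 0.0044, -0.027 and 0.036. The only called gene, Cip2a, lay in the bin from 25 to 30 Mb. Across the 50 genes, which share their libraries and are no independent replicates, the fold change and the distance had a Pearson r of -0.117 in Dp1Tyb and 0.031 in Dp1TybDyrk1a+/+/- versus WT, given as descriptions.

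Because a gene that misses a test is not shown to be the same, the 95% intervals of the fold changes were set against the three-copy genes. Of the 87 tested three-copy genes, 71 were higher in Dp1Tyb and 68 in Dp1TybDyrk1a+/+/- hearts. The 69 of them that averaged 100 or more had a median log2 fold change of 0.33 (1.26-fold) in Dp1Tyb and 0.37 (1.29-fold) in Dp1TybDyrk1a+/+/- hearts. All 46 members that averaged 100 or more had an upper 95% bound below these medians, and also below the lower quartiles of 0.28 and 0.31, in both comparisons. The highest upper bounds were 0.21 and 0.28. The deposited scale may draw fold changes towards 0, so the members were set against three-copy genes on the same scale and not against the nominal copy ratio. Both sets passed the same filter of 100, but they were not matched for level.

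**Figure D2:**
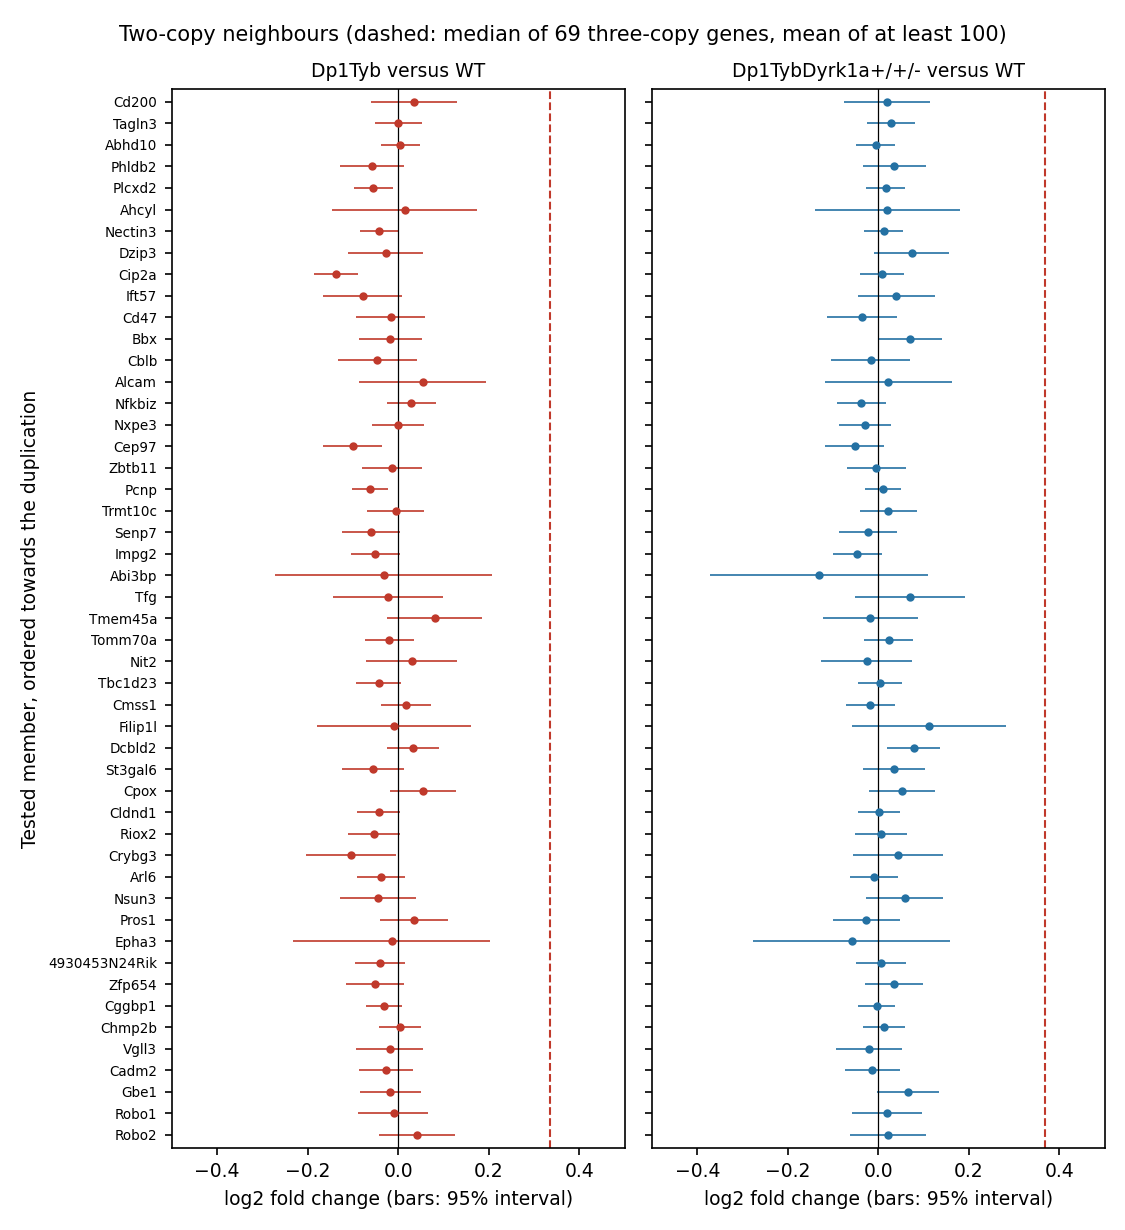
Log2 fold change with its 95% interval (horizontal axis) of 49 of the 50 tested neighbours, ordered by position from Cd200 at the top to Robo2 next to the duplication, for Dp1Tyb versus WT (left, red) and Dp1TybDyrk1a+/+/- versus WT (right, blue); the dashed line is the median of 69 three-copy genes, 0.33 and 0.37. No interval shown reaches the dashed line, and Cip2a at -0.14 on the left has the lowest point.

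Farther out on Mmu16 the shares called were also low. Among 289 tested genes before position 45000000, 5 were higher and 5 lower in Dp1Tyb hearts (3.46%) and 1 was lower in Dp1TybDyrk1a+/+/- hearts (0.346%). For 12870 genes of the other autosomes the shares were 2.76% and 0.264%.

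In Dp1TybDyrk1a+/+/- hearts compared to WT, 0 of the 50 members passed limma's test, against 0.712% of all tested genes. At an unadjusted P under 0.05 there were 2 members, Bbx, an HMG-box protein (0.071), and Dcbld2 (0.078), which is 4% against 9.64% of all tested genes. This count ran from 1 to 5 when single hearts were left out, with 5 without WT heart A10 and 4 without either A15 or A18, and without A15 the fold changes were 0.033 for Bbx and 0.091 for Dcbld2. The median fold change was 0.011 (all tested genes, -0.003), and the values ran from -0.13 for Abi3bp, an extracellular matrix protein, to 0.11 for Filip1l, a filamin-binding protein homologue. The direction of the members depended on heart A15: 19 of the 50 were below 0 with it, and 30 without it, when the median was -0.0051. No member separated all 5 Dp1TybDyrk1a+/+/- hearts from all WT hearts, whereas 0.64% of all tested genes did.

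The mean log2 value over the 50 members showed the same in each heart. It was 9.061 ± 0.019 (SD, n = 10) in WT, 9.041 ± 0.0079 (n = 5) in Dp1Tyb and 9.070 ± 0.055 (n = 5) in Dp1TybDyrk1a+/+/- hearts. The ranges were 9.038 to 9.095, 9.035 to 9.054 and 9.026 to 9.167, so the groups overlapped, and the highest value was that of heart A15. The difference was -0.020 for Dp1Tyb and 0.009 for Dp1TybDyrk1a+/+/- versus WT, and without A15 the latter was -0.015. Over the three-copy genes the same mean was 8.845 ± 0.0045 in WT, 9.118 ± 0.0047 in Dp1Tyb and 9.123 ± 0.0098 in Dp1TybDyrk1a+/+/- hearts, with no overlap between WT and either duplication genotype. Within the sequencing lanes 3, 6 and 7 the members' difference was -0.013, -0.030 and -0.015 in Dp1Tyb, and 0.0053, -0.027 and 0.028 in Dp1TybDyrk1a+/+/- hearts. These lanes held 4, 4 and 2 WT hearts, 2, 2 and 1 Dp1Tyb hearts, and 1, 1 and 3 Dp1TybDyrk1a+/+/- hearts. The genotypes were thus spread unevenly over the lanes, and some within-lane values rest on 1 heart of a genotype.

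**Figure D3:**
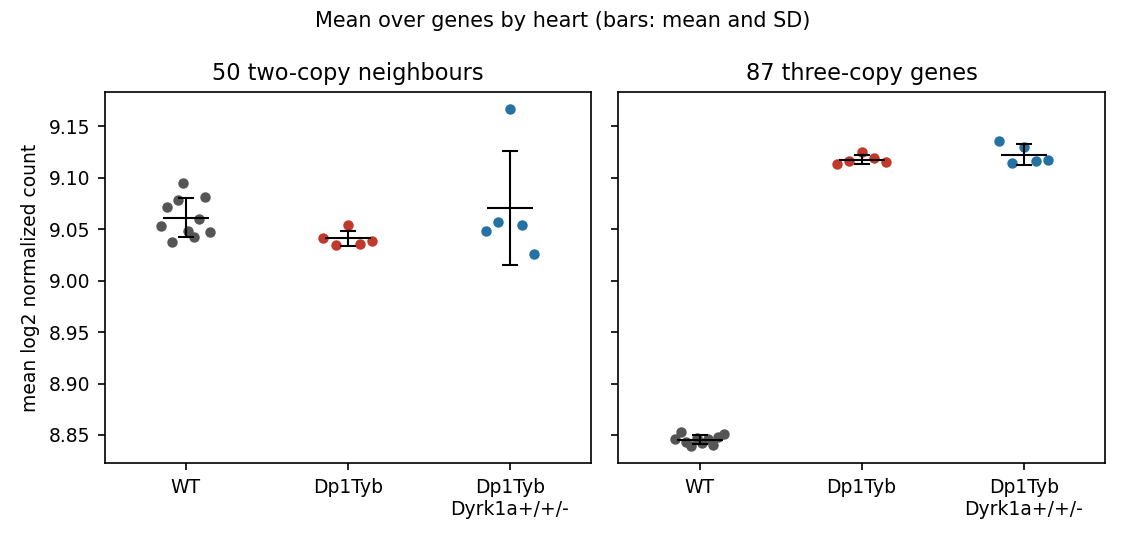
Mean log2 normalized count (vertical axis) over the 50 tested neighbours (left) and the 87 tested three-copy genes (right) in each heart; points are hearts and bars the mean and SD of 10 WT, 5 Dp1Tyb and 5 Dp1TybDyrk1a+/+/- hearts. The neighbours' means overlap between the groups, with heart A15 alone at 9.167, and the three-copy means rise from 8.845 in WT to 9.118 and 9.123.

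Cip2a was the exception among the neighbours. Its product inhibits the phosphatase PP2A and stabilises the MYC protein, and it is abundant in dividing cells. Cip2a (ENSMUSG00000033031, 16:48814534-48840074 on GRCm39, plus strand) lies 26.5 Mb from Lipi. In WT hearts its log2 value ran from 10.56 to 10.71, with a median of 10.63. In the 5 Dp1Tyb hearts it was 10.48, 10.47, 10.51, 10.50 and 10.50, and in the 5 Dp1TybDyrk1a+/+/- hearts 10.62, 10.59, 10.68, 10.62 and 10.66. All 5 Dp1Tyb hearts were thus below every one of the other 15 hearts, and the Dp1TybDyrk1a+/+/- hearts fell inside the WT range. Cip2a was the only member whose Dp1Tyb and WT hearts did not overlap, which held for 2.63% of all tested genes.

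The size of the Cip2a difference was small. In Dp1Tyb versus WT hearts the log2 fold change was -0.14 ± 0.023 (SE), a level 0.909 times that of WT, with a limma adjusted P of 0.00127 and an exact two-sided permutation P of 0.000333, the smallest that 3003 regroupings can give. Within lanes 3, 6 and 7 it was -0.15, -0.12 and -0.15, and the value of lane 7 rests on 1 Dp1Tyb and 2 WT hearts. Dp1TybDyrk1a+/+/- hearts did not differ detectably from WT (0.007 ± 0.023, limma adjusted P = 0.938). The direct comparison of the duplication genotypes, which is the test of the difference between their effects, gave -0.14 ± 0.027 (limma adjusted P = 0.0156, exact permutation P = 0.00794, the smallest that 252 regroupings can give). This call did not hold with lane as a covariate (limma adjusted P = 0.0507), with Xist as a covariate (0.0645), with only these 2 groups in the fit (0.0984) or without Dp1Tyb heart A4 (0.0512), while the fold changes in these fits stayed at -0.13, -0.14, -0.14 and -0.14. Without heart A15 the call held (-0.13, limma adjusted P = 0.0207).

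Cip2a shares its start region with Dzip3, a RING ubiquitin ligase read in the opposite direction. By the GENCODE gene bounds on GRCm39 the start sites of the pair, 48814534 and 48814528, are 6 bases apart. The promoter of Cip2a is shown because both genes start within it. It covers 250 bases before and 50 after its start in RefSeq (chr16:48993938-48994237, plus strand, GRCm38.p6, a different build from the gene coordinates above), with a CCAAT box at position -84 and CTTCCGG, the reverse complement of the ETS-type motif CCGGAAG, at -47 in capitals:
Cip2a promoter: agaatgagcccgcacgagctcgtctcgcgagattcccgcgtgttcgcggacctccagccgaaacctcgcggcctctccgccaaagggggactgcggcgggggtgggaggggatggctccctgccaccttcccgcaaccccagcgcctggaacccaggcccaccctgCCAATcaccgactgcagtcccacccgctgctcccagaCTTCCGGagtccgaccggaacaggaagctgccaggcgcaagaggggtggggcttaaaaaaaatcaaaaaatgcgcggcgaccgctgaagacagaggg
Among 32851 promoters of the same length, 37.4% held CCAAT and 8.86% held CCGGAAG on either strand. No exact match of an E2F-type TTTNNCGC (5.17%) or a CHR-type TTTGAA (17.9%) lay in this window. The printed letters do hold attcccgc and cttcccgc, which differ from the E2F-type string only in their first base. Binding to any of these letters was not tested. The window shares 145 and 175 bases with the 2 RefSeq promoters of Dzip3, so the RefSeq start sites of the pair lie farther apart than those of GENCODE.

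Dzip3 did not pass in any comparison. Its log2 value ran from 10.46 to 10.68 in WT hearts. In Dp1Tyb hearts it was 10.56, 10.54, 10.59, 10.51 and 10.56, and in Dp1TybDyrk1a+/+/- hearts 10.61, 10.63, 10.87, 10.62 and 10.54. The Dp1Tyb hearts fell inside the WT range, and A15 was above all other hearts. The fold changes were -0.027 (limma adjusted P = 0.816) in Dp1Tyb and 0.074 (0.566) in Dp1TybDyrk1a+/+/- versus WT, and -0.10 (0.243) between the duplication genotypes. Without A15 the last 2 were 0.020 (0.814) and -0.047 (0.478).

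The ratio of the pair was then taken within each heart, a measure chosen after their values were seen. The log2 ratio of Cip2a to Dzip3 was 0.049 ± 0.074 (SD, n = 10) in WT, -0.062 ± 0.029 (n = 5) in Dp1Tyb and -0.018 ± 0.11 (n = 5) in Dp1TybDyrk1a+/+/- hearts. It was lower in Dp1Tyb than in WT by -0.11 (exact two-sided permutation P = 0.00833), with WT hearts from -0.06 to 0.19 and Dp1Tyb hearts from -0.08 to -0.01, which overlap. Against Dp1TybDyrk1a+/+/- hearts the difference was -0.044 (exact permutation P = 0.437), and it rested on single hearts: it was -0.086 without A15 (exact permutation P = 0.0238) and -0.011 without A18 (exact permutation P = 0.841). The tests of Cip2a's pair come from 3 head-to-head pairs among the members. For Trmt10c, a subunit of mitochondrial RNase P, and Senp7, a SUMO protease, the ratio differed by -0.055 (exact P = 0.113), and for Zfp654 and Cggbp1 by 0.019 (exact P = 0.507) in Dp1Tyb versus WT. The Trmt10c and Senp7 genes overlap, so reads from the shared stretch may not be assigned to 1 of them.

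**Figure D4:**
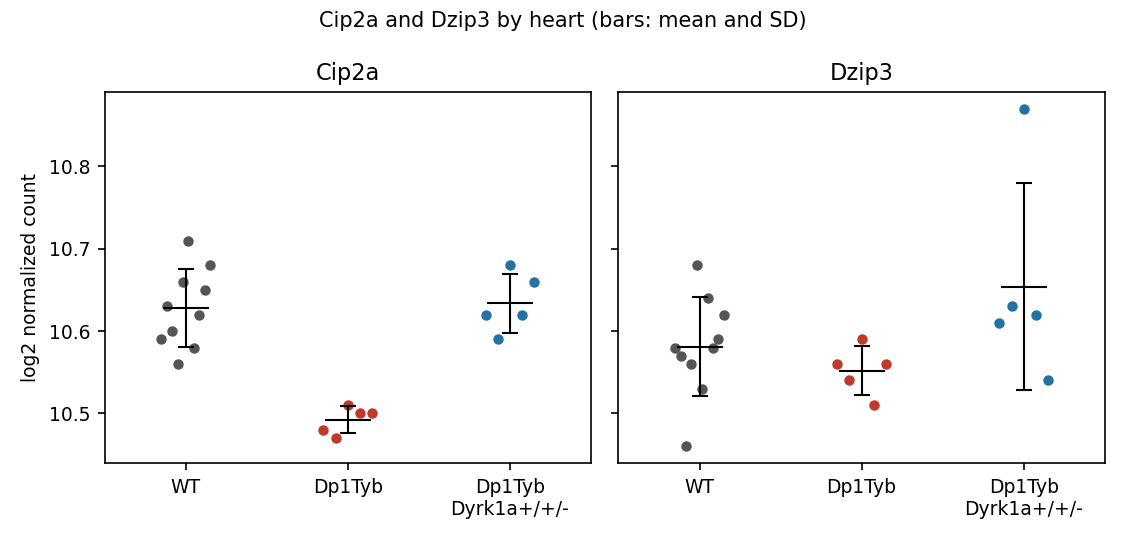
Log2 normalized count (vertical axis) of Cip2a (left) and Dzip3 (right) in each heart; points are hearts and bars the mean and SD of 10 WT, 5 Dp1Tyb and 5 Dp1TybDyrk1a+/+/- hearts. The 5 Dp1Tyb hearts lie from 10.47 to 10.51 for Cip2a, below all others, and inside the WT range for Dzip3.

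The duplication genotypes, compared directly, differ in the third functional copy of Dyrk1a. They also differ in strain, which cannot be told apart from it, and in lanes, with 1 Dp1Tyb and 3 Dp1TybDyrk1a+/+/- hearts in lane 7. Of the 50 members 1 passed, Cip2a (2%, against 1.16% of all tested genes), and 14 had an unadjusted P under 0.05 (28%, against 18.5%). The median fold change was -0.028 (all tested genes, 0.0028), and 35 of the 50 were below 0 (70%, against 48%). These values depended on single hearts. The 14 members became 7 without Dp1Tyb heart A3 and 9 without A6, without A7 or without A15, and leaving out A15 also gave 28 below 0 and a median of -0.015. In 4 members no Dp1Tyb heart overlapped a Dp1TybDyrk1a+/+/- heart (5.65% of all tested genes did so): Cip2a, Pcnp (-0.073, limma adjusted P = 0.0945), Riox2, a ribosomal histidine hydroxylase (-0.059, 0.322), and Nsun3, a mitochondrial transfer RNA methyltransferase (-0.10, 0.248). Of these, Pcnp came closest to the threshold after Cip2a, with Dp1Tyb hearts at 11.20, 11.21, 11.22, 11.25 and 11.19 and Dp1TybDyrk1a+/+/- hearts at 11.28, 11.28, 11.32, 11.28 and 11.27. The lowest fold change was that of Crybg3 (-0.15, limma adjusted P = 0.165), whose groups overlapped.

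The remaining members are given by role, with roles assigned after the values were seen and no role tested as a group. Apart from Cip2a, no member of any role passed in either comparison with WT. The 8 guidance and adhesion genes (Robo1, Robo2, Epha3, Nectin3, Alcam, Cadm2, Cd47 and Cd200) had fold changes from -0.042 (Nectin3) to 0.055 (Alcam) in Dp1Tyb and from -0.059 (Epha3) to 0.022 (Alcam) in Dp1TybDyrk1a+/+/- versus WT, and 0 of the 8 passed. Epha3, an ephrin receptor of the atrioventricular cushions, was also the most variable member among WT hearts, with log2 values from 9.32 to 10.14 and an SD of 0.233. Without A15 its fold change in Dp1TybDyrk1a+/+/- hearts was -0.13, and all 8 genes were below 0. Cadm2, a synaptic adhesion molecule, was the only one of the 8 near the filter, at a mean normalized count of 14.4.

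The 4 secreted and matrix genes did not pass either. Pros1, the anticoagulant protein S, had fold changes of 0.036 and -0.027. Abi3bp had a median of 6.84 in WT hearts, with a highest value of 7.19, and ran from 6.41 to 7.29 in Dp1TybDyrk1a+/+/- hearts, where A15 gave the highest value, and its fold changes were -0.032 and -0.13, the latter -0.27 without A15.

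Among the 8 mitochondrial and metabolic genes, none passed in either comparison with WT. Tomm70a, an import receptor of the outer mitochondrial membrane, had fold changes of -0.020 and 0.023. Cpox, the heme synthesis enzyme coproporphyrinogen oxidase, had 0.054 and 0.052, the highest of this group in Dp1Tyb hearts, beside 0.053 and 0.014 as the median of 8 other heme synthesis genes, of which Alas2 is also in the erythroid list. All 6 cytoskeleton and trafficking genes (Phldb2, Tagln3, Filip1l, Tfg, Tbc1d23 and Chmp2b) were above 0 in Dp1TybDyrk1a+/+/- hearts, from 0.0036 to 0.11, and 0 of the 6 passed. This direction rested on heart A15, without which 4 of the 6 were above 0: Tfg fell to -0.023, Tbc1d23 to -0.017, Phldb2 to 0.0016 and Filip1l, where A15 was at 10.86 and the other 4 hearts lay from 10.25 to 10.36, to 0.0015. Between the duplication genotypes 6 of 6 were below 0 (median -0.070), and 5 of 6 without A15 (median -0.023).

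Of the 9 nuclear genes, 0 passed in Dp1Tyb versus WT, and 8 had fold changes below 0, beside 72% of all members. They ran from -0.063 (Pcnp) to 0.029 for Nfkbiz, a nuclear regulator of NF-kappaB. Zbtb11, a zinc-finger repressor, had -0.014 and -0.005, Vgll3, a TEAD cofactor, -0.019 and -0.020, and Cggbp1 -0.032 and -0.0039. Cggbp1 was the steadiest member, with a WT range from 11.60 to 11.67 and an SD of 0.0252. The median WT SD over the members was 0.0554, beside 0.0538 over all tested genes.

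The 3 genes of phosphatase and ubiquitin control, Cip2a, Dzip3 and the ubiquitin ligase Cblb, were below 0 in Dp1Tyb versus WT and versus Dp1TybDyrk1a+/+/-, and only Cip2a passed. For Cblb the fold changes were -0.046 (limma adjusted P = 0.663) and -0.029 (0.774), and the second was 0.032 without A15. Of the ciliary genes, Ift57, a subunit of intraflagellar transport, had fold changes of -0.078 (limma adjusted P = 0.382) and 0.040 (0.770) versus WT, and Arl6, a small GTPase, -0.037 (0.539) and -0.0099 (0.915).

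Over 7 lists of the neighbours' partners elsewhere in the genome, 0 of 48 tested genes passed limma's test in any comparison, and an unadjusted P under 0.05 was found for 5 of them in Dp1Tyb and 8 in Dp1TybDyrk1a+/+/- hearts against WT, and for 8 between the duplication genotypes. These are 10.4%, 16.7% and 16.7%, against 15.6%, 9.64% and 18.5% of all tested genes. For the SLIT ligands and other ROBO partners (8 of 10 tested) the median fold changes versus WT were 0.0048 in Dp1Tyb and 0.021 in Dp1TybDyrk1a+/+/- hearts, and Slit2, a secreted ROBO ligand, had 0.083 (limma adjusted P = 0.309) and 0.11 (0.340). The medians were 0.022 and -0.012 for 8 nectin and afadin partners, 0.02 and -0.0065 for 8 outer mitochondrial membrane import genes, and -0.035 and -0.026 for 8 genes of the BBSome, the ciliary cargo adaptor recruited by ARL6. They were 0.070 and -0.044 for 5 tested genes of the Gas6 and protein S receptor system, and 0.083 and -0.016 for 3 partners of Cd47, the don't-eat-me signal.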

How the data were processed

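Hearts were dissected at E13.5, and polyadenylated RNA was sequenced. The authors deposited log2 normalized counts of 48795 Ensembl genes in 20 hearts, with values from -2.31 to 18.97, made per the labels' processing notes with Trimmomatic 0.36, STAR 2.5.2a, RSEM 1.2.31 and DESeq2 on GRCm38. The transformation is not given in the sources used here. Mean normalized counts in this text are means over the hearts of these values taken back from the log2 scale. No reads or raw counts were used, so depth and counting error are unknown. Gene names and positions came from GENCODE M39 (GRCm39) by Ensembl identifier, with 44565 of the genes named, and promoters from RefSeq (GRCm38.p6).

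Genotypes were compared with limma 3.58.1 (R 4.3.3; lmFit, eBayes with trend) on the 15304 genes averaging 10 or more normalized counts over the hearts, with 1 mean per genotype over all 20 hearts, and P-values were adjusted over all of these genes by the Benjamini-Hochberg method at a threshold of 0.05. Single values were also tested by exact two-sided permutation over hearts. The fit was tested on simulated data. No 2 of the 20 hearts held identical values. The P-values measure the spread between embryos, whose litters the labels do not give.

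Named members were those called or without overlap between groups, those at either end of the stretch, the 5 with the highest level per kb of exon, and a list by known role; Dzip3, Pcnp, Riox2, Nsun3, Cep97, Crybg3, Plcxd2, Tfg, Tbc1d23, Tmem45a, Senp7 and Zfp654 were added after their values were seen. The members, the partner and marker lists and the named genes were chosen with earlier results of these data known. Alternatives were other filters on low values, centring, quantile normalization, eBayes without trend or robust, array quality weights, lane or Xist as a covariate, a fit of only 2 groups, and leaving out each heart. Some genes of the stretch are not reported here.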

Additional observations from a re-analysis of the deposited data

Results flagged for a closer look

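In 13 of 96 groups of hearts examined, 1 heart stood apart from the rest of its group by Dixon's criterion, which chance meets in about 1 in 20 groups. Dp1TybDyrk1a+/+/- heart A15 gave 5 of these values: Bbx at 11.11 (the other hearts of its group, 10.91 to 10.94), Cblb, a ubiquitin ligase, at 10.09 (9.74 to 9.82), Filip1l at 10.86 (10.25 to 10.36), Robo2 at 9.34 (9.06 to 9.12) and the mean over the 50 tested members at 9.17 (9.03 to 9.06). WT heart A10 gave Ahcyl at 10.05 (9.52 to 9.74), Ift57 at 8.07 (7.79 to 7.91) and Filip1l at 10.65 (10.14 to 10.34). The remaining values were Bbx at 10.94 in Dp1Tyb heart A12 (10.84 to 10.87), Cblb at 9.89 (9.80 to 9.81) and Abi3bp at 6.61 (6.84 to 6.93) in Dp1Tyb heart A7, Gbe1 at 9.92 in Dp1Tyb heart A3 (10.01 to 10.04) and Tomm70a at 11.59 in WT heart A13 (11.66 to 11.73).

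Cip2a was called between the duplication genotypes in the fit described above. The call was lost with lane or Xist as a covariate (limma adjusted P = 0.0507 and 0.0645), with only these 2 groups in the fit (0.0984) and without Dp1Tyb heart A4 (0.0512). In the fit described above the effect on Cip2a in Dp1Tyb minus that in Dp1TybDyrk1a+/+/- hearts, both against WT, was -0.14 on the log2 scale (limma adjusted P = 0.0156). All 5 Dp1Tyb hearts were below all 5 Dp1TybDyrk1a+/+/- hearts.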

How the results depend on the processing

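The number of members called in Dp1Tyb versus WT was 2 with no filter on low values, where Zpld1 (0.033), whose mean normalized count was 3.008, was added, and 4 with array quality weights, which added Cep97, Crybg3 and Pcnp; leaving out single hearts gave 1 to 2. In Dp1TybDyrk1a+/+/- versus WT it was 1 with array quality weights (Dcbld2). In Dp1Tyb versus Dp1TybDyrk1a+/+/- it was 2 with array quality weights (Pcnp added), and 0 with lane as a covariate, 0 with Xist as a covariate and 0 with only these 2 groups in the fit; leaving out single hearts gave 0 to 2. Without WT heart A10, Cep97 was also called in Dp1Tyb versus WT (limma adjusted P = 0.0246) and Pcnp between the duplication genotypes (0.0441). Without Dp1TybDyrk1a+/+/- heart A15, Pcnp was also called in Dp1Tyb versus WT (0.0378). Without Dp1Tyb heart A4 no member was called between the duplication genotypes. The cause of these changes was not tested.

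The Cip2a call in Dp1Tyb versus WT held in all these alternatives, with limma adjusted P from 0.000201 to 0.007. For the 31 named members and the ratio of Cip2a to Dzip3, 3091 values were recomputed. Of these, 0 reversed a call, 4 lost and 2 gained the threshold, and 51 moved by more than 1 SD between replicates. Those that moved were within-lane values, which have no test, except Dcbld2 and Cggbp1 between the duplication genotypes. These also moved under quantile normalization. The log2 ratio of Cip2a to Dzip3 in Dp1Tyb versus WT was -0.12 to -0.095 when single hearts were left out (exact permutation P from 0.003 to 0.021) and -0.13 to -0.091 within lanes, and against Dp1TybDyrk1a+/+/- hearts it passed only without heart A15 (-0.086, exact permutation P = 0.0238), alternatives chosen after seeing the data.

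Over all tested genes, 471 were called in Dp1Tyb versus WT, with 277 higher and 194 lower. With array quality weights 718 were higher and 704 lower, with only these 2 groups 419 and 360, and with Xist as a covariate 170 and 75. Between the duplication genotypes 65 were higher and 113 lower, against 548 and 699 with array quality weights, 95 and 178 among genes averaging 100 or more, 32 and 44 without the filter, 48 and 177 when centred on the median, 12 and 17 with lane, 3 and 9 with Xist and 2 and 1 with only these groups. In Dp1TybDyrk1a+/+/- versus WT 96 were higher and 13 lower, against 226 and 115 with array quality weights. No paired analysis was possible because the labels give no litter, and the hearts carry running numbers that no 2 groups share. The low level of genes such as Cadm2 and Rbm11 limits what their fold changes can show, since the deposited scale may draw low genes towards 0.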
